A study of Mus musculus with 9 samples.

Results

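The 10 genes described here are targets of the transcription factor p53 and genes of the DNA damage response: Cdkn1a, Mdm2, Ccng1, Trp53inp1, Bax, Phlda3, Eda2r, Gdf15, Sesn2 and Gadd45a. They were taken by symbol from the deposited expression tables of a heart study, and all 10 were found among the 15779 genes of those tables. The study measured polyA RNA in adult mouse hearts of strain C57BL/6J by sequencing. The labels name 3 groups with 3 replicates each, called hearts here although the labels do not say that replicates are separate animals: wildtype mice given saline, homozygous Mybpc3R946X/R946X mutants given saline, and mutants of that genotype given high-dose-exABE8e. Mybpc3 encodes cardiac myosin-binding protein C of the sarcomere, and R946X is a premature stop codon in it. The design text says that adenine base editors (SpRY-ABE8e among them) were carried into cardiomyocytes by the adeno-associated virus AAV9. The labels give no dose, age in weeks, sex or promoter, and no group here is labelled as given virus without an editor. Editor, virus and the restored Mybpc3 level cannot be told apart in the treated group.

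Broken or stalled DNA activates the kinases ATM and ATR, which stabilise p53, and p53 then switches on genes for cell-cycle arrest, repair and apoptosis. Mdm2 is both a target and the ubiquitin ligase that removes p53, so the pathway limits itself. Several targets also answer to other stress signals: Gdf15 and Sesn2 are induced by ATF4 in the integrated stress response, and Gadd45a and Cdkn1a respond to growth-factor and hypertrophic signals in muscle. Adenine base editors are fusions of an adenosine deaminase with a Cas9 nickase, which cuts 1 strand and is designed not to make double-strand breaks. The question put to the data was whether treated mutant hearts carried more of this response than saline mutant hearts.

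All values below are the deposited ones, whole numbers on a per-million scale, and mean ± SD refers to n = 3 hearts. Library totals lay between 999152 and 999382, so depth is unknown, and no counting error could be computed. Mybpc3 was 1510, 1795 and 2039 in wild type, 133, 142 and 186 in mutants on saline and 1024, 1374 and 1332 after treatment. Every saline mutant lay below every other heart, so Mybpc3 went against no label. Each group held 1 library with the X-inactivation transcript Xist. In treated replicate 1 it stood at 39 beside the Y-linked Ddx3y at 38, whereas the other 8 libraries had a value above 0 for 1 of these 2 genes and 0 for the other. For Cdkn1a, Trp53inp1 and Gdf15 the difference with treatment is also given without that library. The ranking of genes like Cdkn1a, the counts by heart and the medians of gene lists include it. None of the 8 cardiomyocyte markers was at 0 throughout a group, and their summed value ran from 48033 to 58399. In whole heart tissue, fewer cells of a type and less RNA per cell cannot be told apart.

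Promoter windows from RefSeq (GRCm38.p6, 250 bases before to 50 after a transcription start) were matched to 9 of the 10 genes, with 11 windows in all, and searched for the p53 binding decamer. Trp53inp1 was not matched. A window is shown for Cdkn1a, because it had the largest increase with treatment among the 10, and because it held the sole full site among the 11 windows. A full site was taken as 2 adjacent decamers with at most 1 letter off outside their 4-letter cores. Such a site was in 0.0548% of all 32851 windows. The Cdkn1a window below, on the plus strand at chr17:29090729-29091028, belongs to the upstream one of 2 annotated starts that lie 2790 bases apart, and capitals mark the site, which spans bases 51 to 32 before that start (29090928 to 29090947).
Cdkn1a upstream start: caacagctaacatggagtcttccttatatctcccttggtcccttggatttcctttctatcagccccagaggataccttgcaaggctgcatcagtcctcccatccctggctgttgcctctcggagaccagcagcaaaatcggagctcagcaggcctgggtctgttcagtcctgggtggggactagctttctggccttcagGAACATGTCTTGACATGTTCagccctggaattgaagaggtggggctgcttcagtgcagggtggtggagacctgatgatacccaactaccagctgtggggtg
A single decamer was in 8.36% of all windows and in 5 of the 11 (5 genes). Besides Cdkn1a, these were Mdm2, Ccng1, Bax and Gadd45a, printed here with the core of the decamer in capitals, starting 186, 185, 201 and 40 bases before the start. All 4 lie in windows on the strand of the gene, the minus strand: chr10:117710709-117711008, chr11:40755237-40755536, chr7:45466849-45467148 and chr6:67037358-67037657.
Mdm2: gaaCTTGcct
Ccng1: gggCAAGcct
Bax: aggCAAGctt
Gadd45a: gggCTAGccc
The windows of Phlda3, Eda2r, Gdf15 and Sesn2 held no decamer. The C/EBP-ATF element TGATGNAA (3.97% of all windows) and the cAMP response element TGACGTCA (1.79%), searched on both strands, were in none of the 11. A match is a match of letters, and these windows do not cover introns or distant elements.

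Saline mutant hearts had higher levels of 4 of the 10 genes than wild-type hearts (7.7% of all genes were called in that comparison): Cdkn1a, Gdf15, Eda2r and Trp53inp1. Gdf15 was listed at 0 in every wild-type heart and was tested against wild type only through its mutant values. Its calls are therefore not support for the group of genes. The negative regulator Mdm2, the apoptosis genes Bax and Phlda3, and Ccng1, Sesn2 and Gadd45a did not pass the test. In treated against saline mutants, 0 of the 10 were called, where 0.0147% of all genes were, so the count is that of the background. For Cdkn1a, with the largest positive difference, 2 treated hearts lay above and 1 below all saline mutants. Against wild type, treated hearts had Gdf15 called higher, while Cdkn1a was higher in 3 of 3 hearts without passing it. Calls rest on limma with log2(value + 1) and a threshold of 0.05 on p-values that were adjusted by Benjamini-Hochberg over all genes tested. On that scale the change of low genes is understated.

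**Figure D1:**
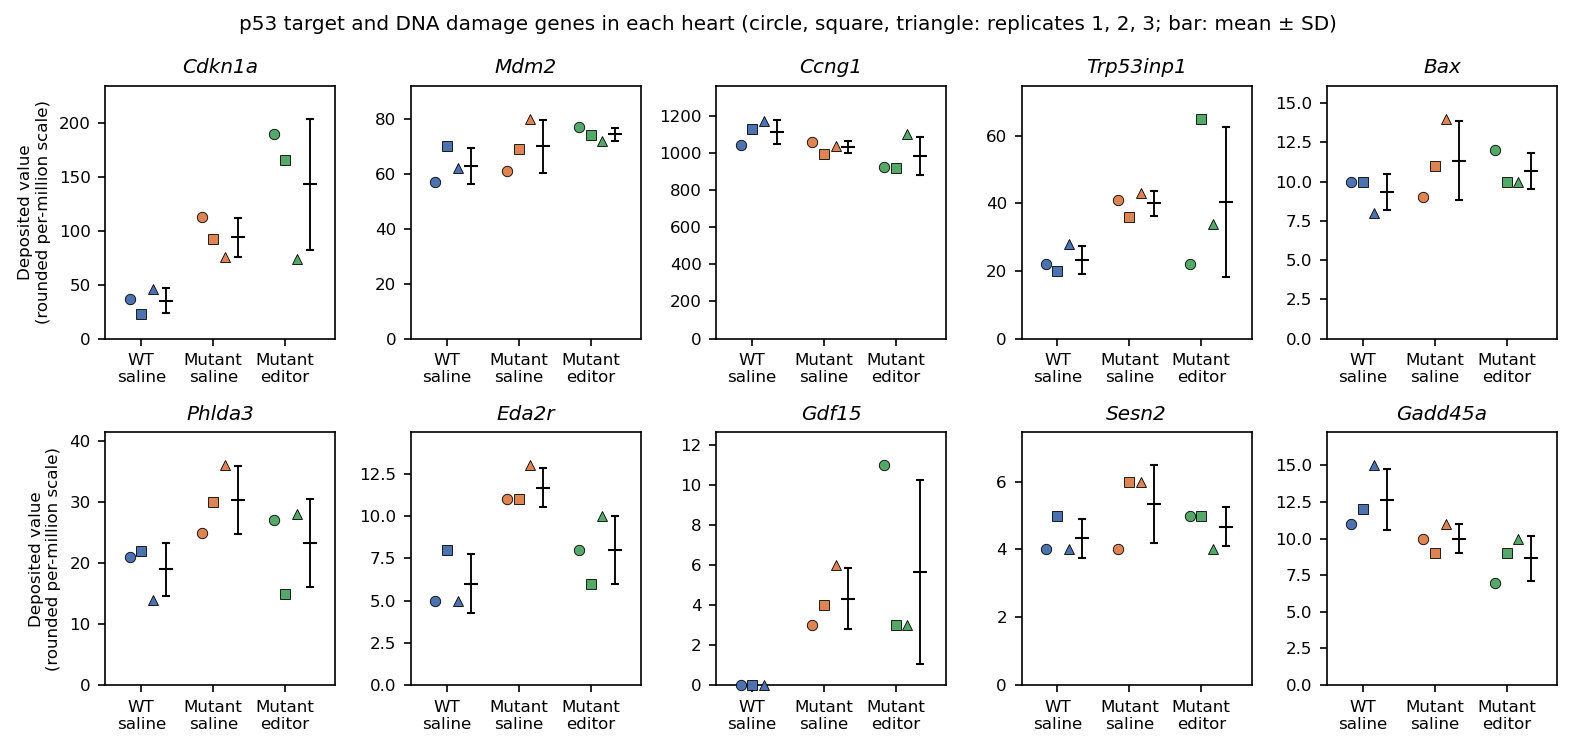
Deposited value (rounded per-million scale, vertical axes from 0) of each of the 10 genes in each heart; circles, squares and triangles are replicates 1, 2 and 3, and bars are mean ± SD of 3 hearts (no bar where all values are 0). Cdkn1a was at most 46 in wild-type hearts and at least 74 in each mutant heart, treated or not, and 2 treated hearts stood at 190 and 166.

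In the comparison of saline mutants with wild type, 4 of the 10 genes were called, all higher, where 7.7% of all 13632 genes tested were called (4.56% higher, 3.14% lower). Under an unadjusted p of 0.05 were 5 of 10, where 19.7% of all genes were. The groups did not overlap for 5 of the 10, all higher, where 12.8% of all genes were higher and 8.78% lower without overlap (21.6% in all). Above 0 were 8 of 10 log2 fold changes, where 59.1% of all genes were. The median log2 fold change of the 10 was 0.45, and that of all genes tested was 0.07. Gdf15 passed the filter on low values (mean of at least 1) only through the mutant hearts. It is in each of these counts and in the median, so its call is not support for the group of genes.

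Cdkn1a encodes p21, the cyclin-dependent kinase inhibitor through which p53 arrests the cell cycle, and lies on chromosome 17 from 29090976 to 29100727 (GRCm38). Wild-type hearts had 37, 23 and 46 (35.3 ± 11.6), mutants on saline 113, 93 and 76 (94.0 ± 18.5) and treated ones 190, 166 and 74 (143 ± 61.2). Every mutant heart, treated or not, was above the highest wild-type heart, and treated replicate 3 lay just below the lowest saline mutant. Saline mutants exceeded wild type 2.68-fold, a log2 fold change of 1.42 with an SE of 0.242 (limma adjusted p 0.00874). It was called in 17 of 18 alternative fits, the exception being limma's own variance step (adjusted p 0.0612).

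Treated against saline mutants, Cdkn1a differed by 0.51 on the log2 scale (SE 0.323, 95% interval -0.22 to 1.25, limma adjusted p 0.698). The value was 0.25 without treated replicate 1, 0.93 without treated replicate 3 (adjusted p 0.169) and 0.11 without the 3 libraries with Xist. Adjusted p-values over the 18 alternatives ran from 0.169 to 0.992, so no fit called it. The interval spans 0 and does not show that treated and saline mutant hearts were alike. Against wild type the treated hearts differed by 1.93 (SE 0.381, limma adjusted p 0.0803), and its adjusted p ranged from 0.0223 to 0.357. It was called in 3 of 18 alternatives: with the prior from all genes (0.0286), with all 9 libraries in 1 fit (0.0223) and without treated replicate 3 (0.0243). It was not called without treated replicate 1.

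The authors' deposited table of treated against saline mutants lists Cdkn1a among its 137 selected genes, with a log2 fold change of 0.64 and an unadjusted p of 0.0369. After Benjamini-Hochberg adjustment of all p-values in the authors' deposited table, that p was 1.0. Cdkn1a was also in the authors' deposited selections for the other pair of comparisons, with log2 fold changes of 1.35 (saline mutants) and 2.0 (treated mutants) against wild type and adjusted values of 0.000699 and 9.41e-06. The other genes that limma called in saline mutants did not pass this adjustment of the authors' p-values. Trp53inp1 had 0.625 and Gdf15 0.121, and Eda2r had an unadjusted p of 0.127. For treated mutants against wild type, Gdf15 had an adjusted value of 0.213. Cdkn1a passed there, where limma did not call it. The selection of 137 genes, 0.879% of the 15580 genes in the authors' deposited table, held 1 of the 10, and that gene's unadjusted p did not survive adjustment over the genes of the table.

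Mybpc3, the edited gene, and Cdkn1a can be set side by side in the treated hearts. Mybpc3 was at 57.5%, 77.1% and 74.8% of the wild-type mean in treated replicates 1, 2 and 3, where Cdkn1a was 190, 166 and 74. Replicates 2 and 3 were close in Mybpc3 and far apart in Cdkn1a. No relation was tested over 3 hearts.

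Mdm2 encodes the E3 ubiquitin ligase that targets p53 for degradation (chromosome 10, 117688875 to 117710758). Its values were 57, 70 and 62 in wild type, 61, 69 and 80 in mutants on saline and 77, 74 and 72 after treatment. Each treated heart was above the highest wild-type heart, but inside the range of the saline mutants. The log2 fold changes were 0.15 (adjusted p 0.612) between mutants on saline and wild type, 0.09 (95% interval -0.19 to 0.37, adjusted p 0.875) with treatment and 0.24 (SE 0.106, adjusted p 0.409) in treated mutants against wild type, all by limma. None of the 3 passed the threshold, and the last was the one without overlap between groups.

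Ccng1, cyclin G1, is a p53 target that recruits a phosphatase to Mdm2. It stood at 1046, 1128 and 1173 in wild type, 1062, 996 and 1036 in mutants on saline and 927, 920 and 1101 after treatment. The log2 fold changes were -0.11, -0.07 and -0.19 in the 3 comparisons, in the order above, with limma adjusted p-values of 0.604, 0.887 and 0.529. The 95% interval with treatment ran from -0.33 to 0.18.

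Trp53inp1 encodes a stress-induced nuclear protein that promotes p53 activity (chromosome 4, 11156431 to 11174379). It was 22, 20 and 28 in wild type, 41, 36 and 43 in mutants on saline and 22, 65 and 34 after treatment. All 3 mutants on saline were above wild type, with a log2 fold change of 0.76, an SE of 0.147 and a limma adjusted p of 0.0151. That call was lost with all 9 libraries in 1 fit (0.192), without wild type replicate 1 (0.0693), without saline mutant replicate 3 (0.0554) and without the 3 libraries with Xist (0.116). The treated hearts spread over both other groups, with replicate 1 at a wild-type level and replicate 2 above every saline mutant. Their difference from saline mutants was -0.12 (95% interval -0.86 to 0.62, limma adjusted p 0.951), and it was 0.23 without treated replicate 1.

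Of the genes that act in apoptosis, Bax, the pore-forming BCL2 family member, was 10, 10 and 8 in wild type, 9, 11 and 14 in mutants on saline and 12, 10 and 10 after treatment. The 3 groups overlapped, and its log2 fold changes of 0.24, -0.06 and 0.18 were within the spread between hearts (limma adjusted p 0.527, 0.956 and 0.677). Phlda3, a repressor of AKT signalling, was 21, 22 and 14 in wild type, 25, 30 and 36 in mutants on saline and 27, 15 and 28 after treatment. It was higher in 3 of 3 saline mutants than in any wild-type heart, by 0.66 (SE 0.197), without passing the threshold (limma adjusted p 0.0899). With median-of-ratios scaling it passed (0.0401, in a range up to 0.254). With treatment it differed by -0.40 (95% interval -0.95 to 0.15, limma adjusted p 0.694).

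Eda2r, a receptor of the tumour necrosis factor family for ectodysplasin A2, is X-linked (X, 97333840 to 97377216). It was 5, 8 and 5 in wild type, 11, 11 and 13 in mutants on saline and 8, 6 and 10 after treatment. The saline mutants stood above both other groups without overlap. They exceeded wild type by a log2 fold change of 0.88 with an SE of 0.194 (limma adjusted p 0.0277). This call was kept in 11 of 17 alternatives, and its adjusted p ranged from 0.00794 to 0.204. It was lost with limma's own variance step (0.0692), without wild type replicates 1 (0.123) or 3 (0.107), without saline mutant replicates 2 (0.0925) or 3 (0.0884), and without the 3 libraries with Xist (0.204).

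With treatment, Eda2r was the only member of the 10 whose groups did not overlap, and the treated hearts were the lower ones: the log2 difference was -0.51 (SE 0.192, 95% interval -0.95 to -0.08). Its unadjusted p was 0.0266, and the limma adjusted p was 0.527. In this comparison 4.34% of all genes were lower without overlap and 5.48% higher (9.82% in all), so 1 in 10 is near that background.

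Gdf15 encodes growth differentiation factor 15, a secreted stress hormone (chromosome 8, 70629393 to 70632456). It was listed at 0 in each of the 3 wild-type libraries, at 3, 4 and 6 in mutants on saline and at 11, 3 and 3 after treatment. Every mutant heart had a value and no wild-type heart did, so no fold change is given. Saline mutants against wild type were called (limma adjusted p 0.00101, from 0.000201 to 0.115 over the alternatives), except with a pseudocount of 0.1 (0.115). Treated mutants against wild type were called at 0.0479, close to the threshold, and in 5 of 17 alternatives, whose adjusted p ranged from 0.0108 to 0.27. Leaving out any 1 of the 6 libraries ended that call: adjusted p was 0.148, 0.148 and 0.153 when wild type 1, 2 or 3 was dropped and 0.0734, 0.0882 and 0.0572 when treated heart 1, 2 or 3 was dropped. With treatment the difference was 0.15 on the log2 scale (95% interval -0.82 to 1.12, limma adjusted p 0.956). The sign rested on treated replicate 1: without it the difference was -0.38.

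Sesn2, sestrin 2, restrains mTORC1 signalling under stress. It was 4, 5 and 4 in wild type, 4, 6 and 6 in mutants on saline and 5, 5 and 4 after treatment. At these low rounded values a step of 1 is a large share of the level, and the log2 fold changes of 0.24, -0.15 and 0.09 had limma adjusted p-values of 0.571, 0.875 and 0.874. Gadd45a, a stress-induced protein that binds PCNA and activates stress kinases, was 11, 12 and 15 in wild type, 10, 9 and 11 in mutants on saline and 7, 9 and 10 after treatment. The treated hearts were all below the wild-type hearts, by -0.50 (SE 0.171, limma adjusted p 0.281), and overlapped the saline mutants, from which they differed by -0.19 (95% interval -0.58 to 0.19, adjusted p 0.814).

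In the comparison of treated with saline mutants, limma called 0 of the 10 genes, where it called 2 of all 13636 genes tested (0.0147%; 0.00733% higher and 0.00733% lower). At an unadjusted p under 0.05 there was 1 of 10, Eda2r, lower, where 8.29% of all genes were under it. A count of 0 of 10 is what this background gives, and it is no result about the 10 genes. No member was called in any of the 18 alternative fits, and 0 of the 10 passed after adjustment of the p-values in the authors' deposited table. Of the 10 log2 differences, 3 were above 0 (Cdkn1a, Gdf15 and Mdm2) and 7 below it, where 40.6% of all genes were above 0. The median was -0.10, and that of all genes tested was -0.02. The widest intervals were those of Gdf15, Cdkn1a and Trp53inp1, whose upper bounds were 1.12, 1.25 and 0.62. For the other 7 the upper bounds lay between -0.08 and 0.37.

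**Figure D2:**
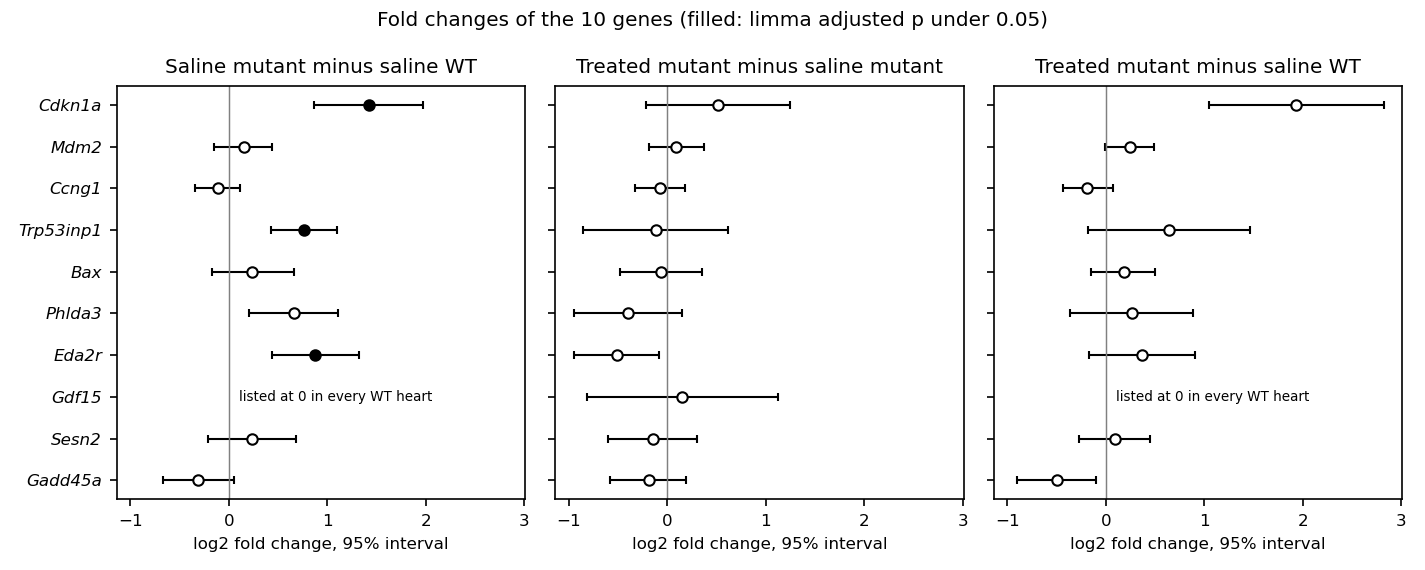
Log2 fold change on log2(value + 1) with its 95% interval for each of the 10 genes (rows) in the 3 comparisons (panels); filled points passed a limma adjusted p of 0.05, and Gdf15 is not drawn against wild type, where all 3 hearts were listed at 0. In the middle panel, treated minus saline mutant, no point is filled, and the Cdkn1a interval runs from -0.22 to 1.25.

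Treated mutants against wild type had 1 of 10 called, Gdf15, higher, where 0.989% of all 13554 genes tested were called (0.863% higher, 0.125% lower). Gdf15 passed the filter on low values only through the treated hearts here too, so its call is not support for the group of genes. Under an unadjusted p of 0.05 were 3 of 10, where 12.5% of all genes were, and 8 of 10 were above 0, where 51.4% of all genes were. The groups did not overlap for 4 of the 10: Cdkn1a, Mdm2 and Gdf15, higher, and Gadd45a, lower. Among all genes, 9.13% were higher and 5.43% lower without overlap (14.6% in all). The comparisons share groups, so their fold changes are not independent of each other. Counted heart by heart, 5, 7 and 8 of the 10 genes were above the whole wild-type range in saline mutant replicates 1, 2 and 3, and 5, 4 and 6 in treated replicates 1, 2 and 3. Treated hearts had 2, 2 and 1 genes above the range of the saline mutants and 4, 3 and 3 below it. No share over all genes was computed for these counts by heart, so they are no result about the 10 genes. Gdf15, listed at 0 in every wild-type heart, is among the genes above the wild-type range in each mutant heart.

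Genes of marker lists also differed between the same groups, and their part in the results above was not tested. Of the 8 cardiomyocyte markers, limma called 0 in saline mutants against wild type. Under an unadjusted p of 0.05 were 4, where 19.7% of all genes were. Without overlap 1 was higher and 3 were lower, where 12.8% and 8.78% of all genes were. In saline mutants against wild type, limma called 7.7% of all genes. The summed values of 8 fibroblast markers were 1388 to 1846 in wild type, 2144 to 3399 in mutants on saline and 1637 to 2115 after treatment, and 2 of the 8 (Col1a1 and Col1a2) were called higher in saline mutants. The 9 macrophage markers summed to 443 to 632, 492 to 953 and 480 to 624, with 0 of 9 called by limma in the 3 comparisons and 1, 0 and 1 under an unadjusted p of 0.05. The 6 red blood cell markers summed to 104 to 315, 69 to 86 and 141 to 159, with 2 called lower in saline mutants (Hba-a2 and Alas2). With treatment limma called 0 of the 5 tested, but all 5 were higher without overlap and under an unadjusted p of 0.05. All 8 fibroblast markers were below 0 with treatment, 4 of them under that p. All 9 macrophage markers were below 0 too, with 0 under it. Over all genes, 8.29% were under that p, 5.48% were higher without overlap and 40.6% were above 0. Acta2, of the smooth muscle list, was called lower in saline mutants. Of the 6 genes of the atrial list, Myl7, Sln and Bmp10 were not measured. The other 3 (Myl4, Nppa and Dkk3) were called higher in saline mutants, with sums of 48 to 67, 372 to 1529 and 173 to 275. These 3 genes alone do not show a change in atrial tissue. Of the skeletal muscle list, 6 of 9 genes were measured, with sums of 1517 to 2237, 5989 to 6339 and 2193 to 2251. Acta1, skeletal alpha-actin, which stressed cardiomyocytes also express, was called higher in saline mutants (3.56, limma adjusted p 0.000178) and lower with treatment (-2.34, 0.000254), and it was the only gene of the marker lists called with treatment. Mybpc2, the fast skeletal paralog of Mybpc3, was called higher in saline mutants (2.56, limma adjusted p 4.68e-05). T cell and B cell markers were at or near 0, with sums of at most 5 and 8 in any heart.

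The wider p53 pathway was read from lists of other genes. Their counts are to be read beside the shares over all genes tested. In saline mutants against wild type, limma called 7.7%, and 19.7% were under an unadjusted p of 0.05. With treatment these shares were 0.0147% and 8.29%, and in treated mutants against wild type 0.989% and 12.5%. A count of 0 called with treatment is what that background gives, and it is no result about a list. Of 18 core and regulatory genes of p53, 16 were measured, and limma called none in any of the 3 comparisons, with none under an unadjusted p of 0.05 either. Trp53 itself, chosen here after its values were seen, was 20, 25 and 15 in wild type, 16, 18 and 23 in mutants on saline and 18, 18 and 19 after treatment. The 3 groups overlapped. The intervals of the Trp53 log2 fold changes were -0.52 to 0.4, -0.39 to 0.32 and -0.51 to 0.32, in the order above. Each interval spans 0 and does not show that the transcript of p53 was alike in the groups. Moreover, p53 is regulated mainly as a protein, which these data do not measure.

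Of 35 further p53 targets, 33 were tested in saline mutants against wild type, and 3 were called higher and 2 lower. The antiproliferative gene Btg2 was 42, 39 and 36 in wild type, 85, 71 and 68 in mutants on saline and 88, 69 and 64 after treatment. It rose by 0.92 in saline mutants (SE 0.121, limma adjusted p 0.00252), differed by -0.03 with treatment and was called in treated mutants against wild type (0.89, adjusted p 0.0416), a call that 9 of 18 alternatives kept (0.0108 to 0.153). It was lost without any 1 wild type replicate and without treated replicate 1 or 2. Its values in the treated hearts were at the level of the saline mutants.

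The apoptosis-linked exonuclease gene Aen rose by 0.49 and the p53 target Perp, a junction protein of epithelia, by 0.44 in saline mutants (limma adjusted p 0.026 and 0.0403). Both lost their call in many alternatives (kept in 10 and 5 of 18, with adjusted p up to 0.145 and 0.129), among them without any 1 wild type replicate. Each was lower in every treated heart than in any saline mutant, at 50, 46 and 48 against 52, 61 and 53 for Aen and at 206, 199 and 224 against 257, 243 and 294 for Perp, without a call (adjusted p 0.684 and 0.479). The ferrireductase Steap3 (-0.88) and the D-glutamate cyclase Dglucy (-0.80) fell in saline mutants, with limma adjusted p-values of 0.0027 and 0.00245. Dglucy was 52, 49 and 54 in wild type, 29, 31 and 28 in mutants on saline and 40, 46 and 42 after treatment, where its difference of 0.52 from saline mutants had an adjusted p of 0.221. Rps27l, a ribosomal protein paralog, was 51, 64 and 72 in mutants on saline and 49, 41 and 49 after treatment (-0.41, adjusted p 0.508).

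With treatment, 0 of the 34 tested targets were called by limma, where 0.0147% of all genes were. Under an unadjusted p of 0.05 were 5, where 8.29% of all genes were, and the median log2 difference was -0.05. In treated mutants against wild type 1 of 33 was called, Btg2, where 0.989% of all genes were. Of 16 paralogs and partners of the 10 genes, 13 were tested in saline mutants against wild type, and the survival gene Bcl2 was called, higher by 0.82 (limma adjusted p 0.0344, kept in 12 of 18 alternatives, up to 0.171). It lost the call without wild type replicates 1 or 3 and without saline mutant replicates 2 or 3. The call was also lost with limma's own variance step (0.0985) and without the 3 libraries with Xist (0.171). Bcl2 was 10, 17 and 13 in wild type, 21, 24 and 27 in mutants on saline and 18, 19 and 19 after treatment.

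Repair genes were grouped by pathway. Of 22 genes of base excision repair, the pathway that removes deaminated and oxidised bases, 21 were measured. Ung, the uracil-DNA glycosylase, fell by 0.86 (log2) in saline mutants, with an SE of 0.16 and a limma adjusted p of 0.013, from 21, 29 and 22 to 13, 14 and 11, and was 12, 16 and 18 in treated mutants (adjusted p 0.746 against saline mutants). With treatment, limma called 0 of 21, with 2 under an unadjusted p of 0.05. Of 12 mismatch repair genes, 11 were tested and 0 called by limma in any comparison, with 1, 0 and 0 under an unadjusted p of 0.05. Of 26 genes of the double-strand break response, 25 were tested in saline mutants against wild type, and 1 was called: Xrcc2, a gene of homologous recombination, at 8, 9 and 9 in wild type and 13, 15 and 15 in mutants on saline (0.66, limma adjusted p 0.0196, kept in 11 of 18 alternatives, up to 0.134). It was lost without any 1 wild type replicate or without saline mutant replicate 2 or 3. In treated hearts Xrcc2 was 12, 10 and 11. With treatment 0 of 25 break response genes were called by limma and 1 was under an unadjusted p of 0.05, and the median was -0.08. Over all genes, 0.0147% were called with treatment and 8.29% were under that unadjusted p. In saline mutants, the 1 call among 21 base excision genes and the 1 among 25 break response genes stand beside 7.7% of all genes.

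The integrated stress response shares Gdf15 and Sesn2 with the p53 program. Of 18 measured genes of it, 4 were called higher in saline mutants against wild type, where 4.56% of all genes were. Their median was 0.50 beside 0.07 for all genes. Atf3, a stress-induced transcription factor, was 4, 3 and 3 in wild type, 19, 8 and 8 in mutants on saline and 18, 21 and 6 after treatment. It rose by 1.45 in saline mutants (limma adjusted p 0.023, kept in 11 of 17 alternatives, up to 0.0926), and the call was lost without any 1 wild type replicate. Against wild type the treated hearts were not called for Atf3 (0.13), except without treated replicate 3 (0.0088, in a range up to 0.575). Atf4, the master regulator of the response, rose by 0.53 (adjusted p 0.0335, kept in 9 of 18, up to 0.122), from 63, 64 and 50 to 84, 81 and 91, and was 118, 84 and 77 in treated hearts. It lost its call without wild type replicates 1 or 3 or any 1 saline mutant replicate. The mitochondrial folate enzyme Mthfd2 rose by 1.72 (adjusted p 0.0014) and the phosphatase subunit Ppp1r15a by 0.79 (adjusted p 0.0114). These 2 were called in all alternatives that tested them. With treatment 0 of 18 were called by limma, where 0.0147% of all genes were. Under an unadjusted p of 0.05 was 1, where 8.29% of all genes were, and the median was -0.04. Vldlr, the very low density lipoprotein receptor (0.22), and the serine enzyme Shmt2 (0.16) were higher in treated hearts than in saline mutants without overlap, with adjusted p-values of 0.641 and 0.764.

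The proliferation genes, which p53 and p21 repress, had the median furthest from 0 of the 8 pathway lists with treatment. All 18 were above 0 on the log2 fold scale in saline mutants, with a median of 0.85 and 2 called higher, E2f1 (1.54, limma adjusted p 0.00406) and Mcm2 (0.76, adjusted p 0.035, kept in 11 of 18 alternatives, up to 0.186). Mcm2 lost its call without wild type replicates 1 or 3 or any 1 saline mutant replicate. Over all genes, 59.1% were above 0 in that comparison and 4.56% were called higher. All 18 proliferation genes were below 0 with treatment, where 40.6% of all genes were above 0. Their median was -0.73 beside -0.02 for all genes, though limma called 0 of them. With the replicate block 2 were called lower, Mki67 (adjusted p 0.0405) and Top2a (0.0483), both genes of dividing cells and named here after their values were seen. In the fit without the block their adjusted p was 0.64 and 0.652, and their ranges over the alternatives reached 0.992 and 1.0. Under an unadjusted p of 0.05 were 9 of 18, where 8.29% of all genes were. E2f1, a cell-cycle transcription factor, was 2, 2 and 1 in wild type, 6, 6 and 8 in mutants on saline and 3, 2 and 3 after treatment (-1.07, adjusted p 0.186). Ube2c, a ubiquitin-conjugating enzyme of mitosis, was 4, 7 and 8 in mutants on saline and 2, 2 and 3 after treatment (-1.11, adjusted p 0.273). These comparisons share the saline mutants, and most of these genes had low values. Against wild type the treated hearts had a median of 0.08, with 13 of 18 above 0 and 0 called or under an unadjusted p of 0.05.

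**Figure D3:**
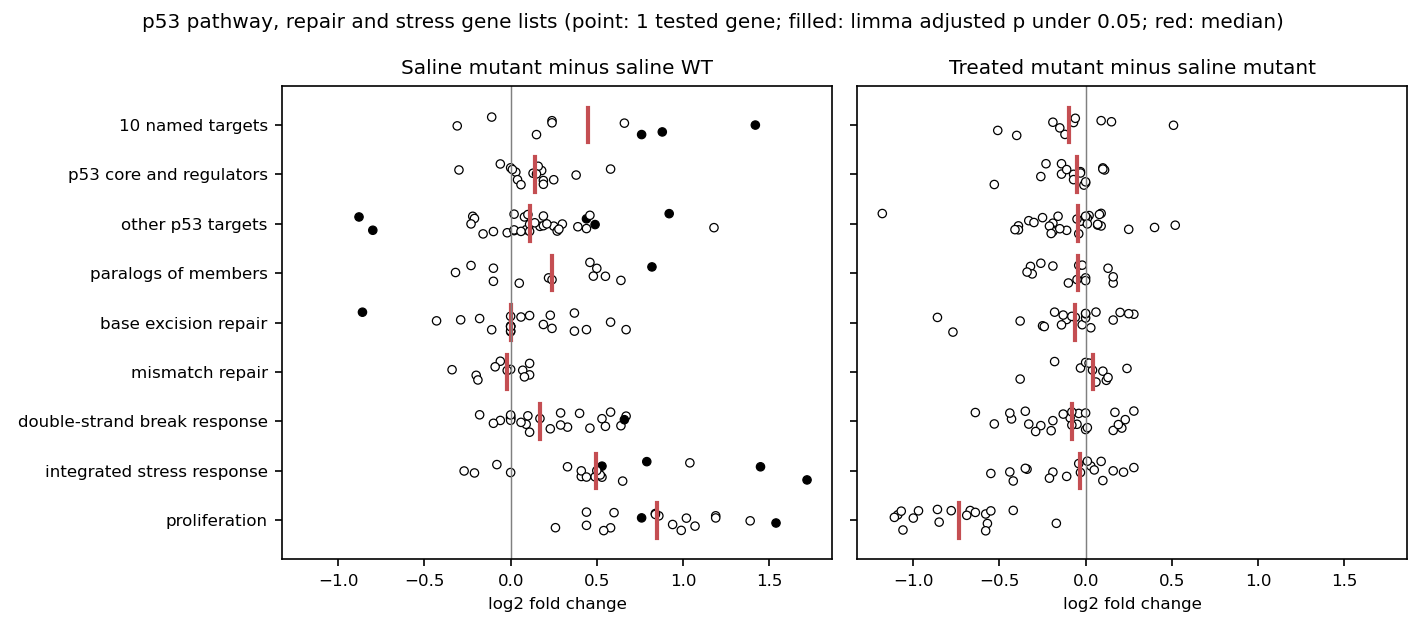
Log2 fold change of each tested gene (points; filled where the limma adjusted p was under 0.05) of the 10 genes and of 8 pathway lists, for saline mutant minus wild type (left) and treated minus saline mutant (right); red bars are medians, points are spread vertically for legibility, and Gdf15 counts in the median of the left panel without being drawn. The right panel holds no filled point, and its proliferation median is -0.73.

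The genes whose values over the 9 hearts were most like those of Cdkn1a were ranked by Pearson's r of log2(value + 1) among 8785 genes with a mean of at least 10, as a description. They were Slc38a2, a glutamine transporter that ATF4 induces (0.969), Clu, the secreted chaperone clusterin (0.969), Bdh1, an enzyme of ketone metabolism (0.959), Abra, an actin-binding protein of striated muscle (0.955), and Wipf3, an actin regulator (0.947). No other of the 10 genes was near: Trp53inp1 ranked at 968 (0.574) and Mdm2 at 1619 (0.442), while Ccng1 (-0.795) and Gadd45a (-0.779) ran the opposite way. The remaining 3 genes under that mean were not ranked.

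The like genes divided the treated hearts as Cdkn1a did. Abra was 27, 21 and 21 in wild type, 122, 69 and 66 in mutants on saline and 273, 282 and 53 after treatment. Bdh1 was 18, 12 and 16, then 57, 64 and 40, then 147, 120 and 24. In each of these 5 genes treated replicates 1 and 2 were above every saline mutant and treated replicate 3 was below every one. Since the ranking used these hearts, that is what it selected for. For the same reason no test between the groups is given for them.

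**Figure D4:**
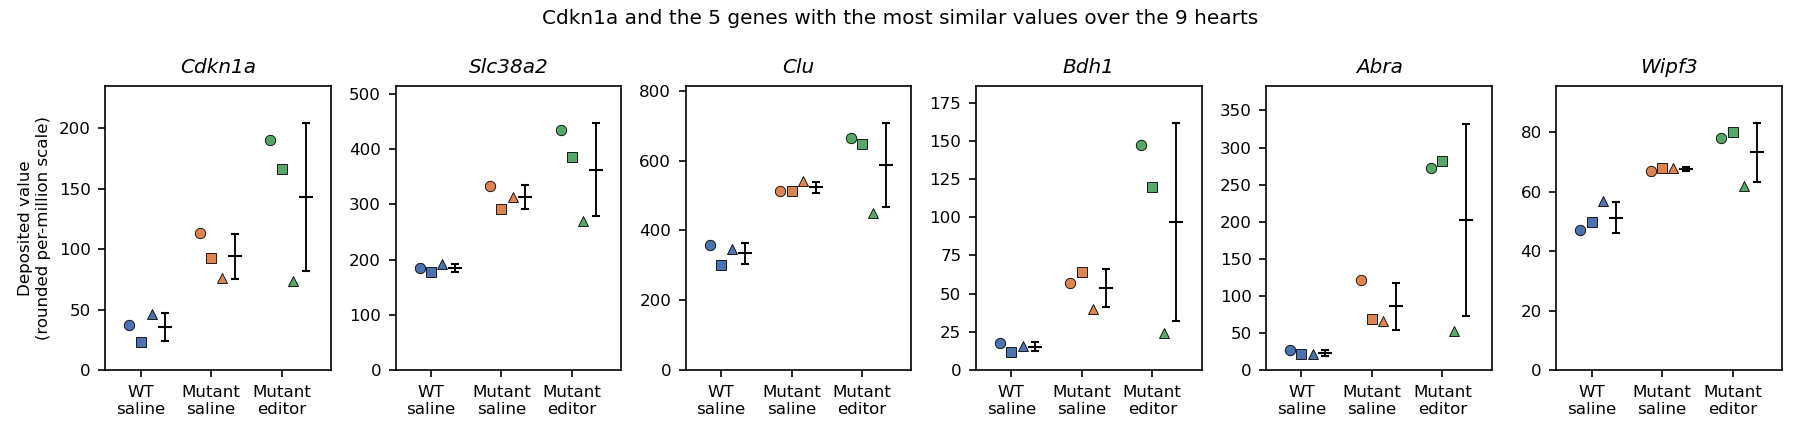
Deposited value (rounded per-million scale, axes from 0) of Cdkn1a and of the 5 genes with the highest Pearson's r to it over the 9 hearts; symbols are replicates 1 (circle), 2 (square) and 3 (triangle), and bars are mean ± SD of 3 hearts. In each panel treated replicate 3 lies below the saline mutants and treated replicates 1 and 2 lie above them.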

How the data were processed

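PolyA RNA of 9 hearts was sequenced. Per the submitters' processing notes, HISAT2, HTSeq and DESeq2 and the build mm10 were used; versions and annotation are not given in the sources used here. The authors deposited a score per gene and library: whole numbers that sum to nearly the same total in each library, so they were not treated as read counts, and the unit is not named. Log2 fold changes with standard errors, and test statistic (a score) per gene are the authors' deposited values. In each table the deposited column headed as adjusted p-value is what the statistic gives as an unadjusted p under a normal distribution, and the one headed as p-value holds that number divided by 55487.

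Each pair of groups was fitted with limma 3.58.1 (R 4.3.3) on log2(value + 1), without a replicate block, for genes with a mean of at least 1. Residual variances were raised to at least the rounding variance (1/12 on the value scale), with a trended prior whose degrees of freedom came from genes with a mean of at least 30. This variance step follows an earlier analysis of these data, and the fit was tested on simulated data. Each p-value sets a group difference against the spread between these samples after that variance step. The labels do not say that the samples are separate animals.

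The 10 genes, the lists and the variance step were chosen with earlier results of these data known. Named besides the 10 were Mybpc3, list genes called in any comparison (up to 6 per list), the 2 non-overlapping genes per list with the largest change with treatment, and the 5 genes most like Cdkn1a. Symbols were matched to GENCODE M21 (GRCm38).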

Additional observations from a re-analysis of the deposited data

How the results depend on the processing

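In treated against saline mutants the count of called members was 0 in all 18 alternatives. In saline mutants against wild type it was 4, and 2 with a minimum mean of 10, with limma's own variance step or without the 3 libraries with Xist, and 2 to 4 with 1 library left out. In treated mutants against wild type it was 1, Gdf15. The count was 0 with a pseudocount of 0.1 or 5, no filter, a minimum mean of 10 or limma's own variance step. It was also 0 with the replicate block or without the Xist libraries. With the prior from all genes or all 9 libraries in 1 fit it was 2, and 0 to 1 with 1 library left out. That 1 was Cdkn1a, without treated replicate 3, and Gdf15 was called in none of the fits with 1 library left out.

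Over all genes, the comparison of saline mutants with wild type had 1050 calls, 556 without the Xist libraries and 506 to 1029 with 1 library left out. The higher and lower calls were 622 and 428, 686 and 595 with median-of-ratios scaling, 622 and 684 with upper-quartile scaling and 624 and 560 without mitochondrial transcripts. With treatment 2 were called: 7 with a pseudocount of 5, 6 with a minimum mean of 10, 10 with median-of-ratios or upper-quartile scaling (8 higher, 2 lower), 32 with limma's own variance step, 14 with the prior from all genes, 13 with all 9 libraries, 30 with the replicate block and 2 to 8 with 1 library left out. Against wild type 134 were called in treated mutants (117 higher, 17 lower; 116 and 46 with upper-quartile scaling): 86 with no filter, 77 with limma's own variance step, 243 with the prior from all genes, 239 with all 9 libraries, 35 with the replicate block, 9 without the Xist libraries and 1 to 133 with 1 library left out. The cause was not tested.

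Small differences changed sign. Without the Xist libraries, Mdm2 in saline mutants against wild type was -0.02, and with treatment Trp53inp1 was 0.29, Bax 0.01, Gdf15 -0.16, Gadd45a 0.00, Ppp1r15a -0.05, Atf3 -0.11, Atf4 -0.04 and Bdh1 -0.16; Ube2c in treated mutants against wild type was -0.16. Btg2 with treatment was 0.01 with median-of-ratios scaling. With 1 library left out, values with treatment ran from -0.53 to 0.23 for Trp53inp1, -0.21 to 0.09 for Bax, -0.38 to 0.42 for Gdf15, -0.16 to 0.07 for Btg2, -0.03 to 0.20 for Ppp1r15a, -0.03 to 0.80 for Atf3 and -0.08 to 0.22 for Atf4, and against wild type from -0.14 to 0.09 for Vldlr and -0.23 to 0.43 for Ube2c. None of these passed the threshold. Calls of list genes were also lost without the Xist libraries. In saline mutants against wild type these were Aen, Perp, Bcl2, Xrcc2, Atf3, Atf4 and Mcm2 (limma adjusted p 0.0587 to 0.186). In treated mutants against wild type it was Btg2 (0.124). Among single-gene results, 1668 kept direction and side of the threshold, 91 lost a call, 28 gained one and 27 changed sign.

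Same-numbered hearts did not deviate together in every pair (correlations of deviations across 13530 genes from -0.271 to 0.454), so the numbers were not taken to pair the hearts, and hearts did not all correlate best with their own number. The replicate block called 819 genes in saline mutants against wild type, and with treatment it called 2 proliferation genes, Mki67 and Top2a. Depth is unknown, and rounding limits genes with values under about 10.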
